A study of Mus musculus with 4 samples.

Results

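RNA abundance of 10 genes of fibroblast growth factor (FGF) signalling was evaluated in basal and luminal cells of the developing mouse prostate. The genes were the receptors Fgfr1, Fgfr2 and Fgfr3, the ligand Fgf10, the feedback inhibitors Spry1, Spry2, Spry4 and Dusp6, and the transcription factor genes Etv4 and Etv5. They were chosen by name from what is known of the pathway, not by their values, although earlier results of these data were known at that time. Each of the 10 had 1 row in a table of 49671 genes. All 10 were among the 18737 genes kept by a filter on low values, and each of them met the filter in basal and in luminal cells.

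The table held 4 libraries from untreated CD-1 mice aged P10-P13, with 2 of basal cells (replicates 1 and 3) and 2 of luminal cells (replicates 3 and 2). Tips were cut from the ducts of the ventral lobe, lobes of several mice were used, and living cells were sorted after CD45+, CD31+ and CD140a+ cells had been gated out. Basal cells were EpCAM high and CD49f high, and luminal cells were EpCAM high and CD49f low. The study treats these basal cells as multipotent and these luminal cells as their progeny, and the comparison asks how the FGF genes differ between both states. No label states that replicates came from separate animals, so p-values measure the spread between these libraries, which may be technical.

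FGF10 is made by the mesenchyme of the budding prostate and binds the epithelial form of FGFR2. The activated receptor recruits FRS2, GRB2 and SOS, which switch on RAS and then the RAF, MEK and ERK kinases. ERK signalling induces Spry, Dusp6, Etv4 and Etv5 transcription, and the Sprouty proteins and DUSP6 then damp the same cascade.

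The promoter sequences of Fgfr2 and Dusp6 are shown because only these 2 of the 10 genes passed the limma test of luminal against basal cells. RefSeq sequences on GRCm38.p6 were matched for 7 of the 10 genes, and 250 bases ahead of the RefSeq start site were read. Capitals mark AGGAAG or its reverse complement CTTCCT, letters that occur in many binding sites of ETS factors, the family of ETV4 and ETV5. The Fgfr2 window is chr7:130266809-130267058 on the minus strand and the Dusp6 window is chr10:99262981-99263230 on the plus strand. The start used for Fgfr2 is that of RefSeq. No GENCODE transcript covers the bases at that start, and the window lies inside the wider span that GENCODE gives the gene, so it may not be the promoter used in these cells.
Fgfr2: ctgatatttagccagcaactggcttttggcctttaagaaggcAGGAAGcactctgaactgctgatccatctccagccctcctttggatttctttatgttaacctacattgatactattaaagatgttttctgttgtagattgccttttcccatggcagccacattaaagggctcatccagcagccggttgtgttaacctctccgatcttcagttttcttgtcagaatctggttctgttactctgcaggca
Dusp6: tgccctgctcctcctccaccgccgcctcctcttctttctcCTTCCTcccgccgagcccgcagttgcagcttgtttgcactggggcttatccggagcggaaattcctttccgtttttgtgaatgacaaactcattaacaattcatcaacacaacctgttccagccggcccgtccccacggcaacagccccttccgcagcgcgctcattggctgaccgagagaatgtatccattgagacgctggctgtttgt
The match began at position -208 in Fgfr2, on the strand of the gene, and at position -210 in Dusp6, on the opposite strand. The other 7 of the 9 windows matched for the 10 genes held no such match, so 2 of 9 windows held these letters on either strand, against 29.5% of the 32851 windows of all genes. The longer CCGGAAG was in none of the 9 windows and in 6.91% of all windows on either strand. A match is a description of letters and not a binding site.

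Values are read counts that the authors scaled to a common total for each library, here called normalized counts. In basal libraries 1 read was worth 6.26 (replicate 1) and 6.50 (replicate 3) normalized counts, against 19.4 (replicate 3) and 31.2 (replicate 2) in luminal libraries. Between 643267 and 3194307 reads stood behind a library, and both luminal libraries were the shallower, so depth and cell type cannot be told apart. The 7 basal marker genes, Krt5 among them, summed to 79047 to 96627 in basal and 7010 to 9216 in luminal libraries. The 7 luminal marker genes, Krt8 among them, summed to 15612 to 18941 in basal and 31537 to 51542 in luminal libraries. All 14 stromal markers had reads in every library, including Pdgfra, which encodes the CD140a antigen of the gate, at 2575 to 8383 normalized counts. The stromal markers summed to 113845 to 237892 in basal and 91122 to 235842 in luminal libraries. Single markers differed more than the sum. Dcn was at 45830 and 47724 in basal and at 5770 and 20256 in luminal replicates 3 and 2. It was the 1 stromal marker with both luminal values below both basal values, against 27.3% of all genes. For 3 of the 14 both lay above, against 23.6%. Genes of the dissociation stress response summed to 205692 to 368876 in basal and 148045 to 213900 in luminal libraries. Some of these 12, such as Fos and Egr1, also respond to ERK. Of the 12, 5 had both luminal values below both basal values, against 27.3% of all genes. Jund alone, 1 of the 12, had both above, against 23.6%. The part of the dissociation stress genes in the results was not tested. In bulk RNA, fewer cells of a type and less RNA per cell cannot be told apart.

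Transcripts of 9 of the 10 genes were lower in luminal than in basal cells by the study's fold rule, a ratio of group averages of 0.5 or less, which 16.3% of all genes tested met. None was higher at a ratio of 2 or more, against 18.3% of all genes. Luminal values of the same 9 lay below both basal values, an order found in 27.3% of all genes. None had both luminal values above both basal values, against 23.6% of all genes. The gene in neither order was Fgf10. The median log2 fold change of the 10 genes, luminal minus basal on the log2(value + 1) scale, was -1.74, and that of all genes was -0.10.

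The limma test with Benjamini-Hochberg adjustment over all genes called Dusp6 and Fgfr2 lower, 2 of 10 against 0.438% of all genes, and none higher, against 0.256% (0.694% in either direction). At an unadjusted limma p under 0.05, 9 of the 10 were lower, against 10.7% of all genes. The edgeR test on whole reads recovered from the table called 5 of them lower, against 2.72% of all genes. These were Fgfr2, Spry1, Spry2, Dusp6 and Etv4, and none was called higher, against 2.36%. DESeq2 on the same reads called 4 lower, against 2.22% of all genes, and did not call Spry1, and it called none higher, against 2.15%. When any 1 of the 4 libraries was left out, 7 to 9 of the 10 still met the fold rule for lower values, against 15.7% to 23.6% of all genes. Limma then called none of the 10. Those fits had 1 residual degree of freedom, and nearly all genes they called had equal values in the remaining pair.

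**Figure D1:**
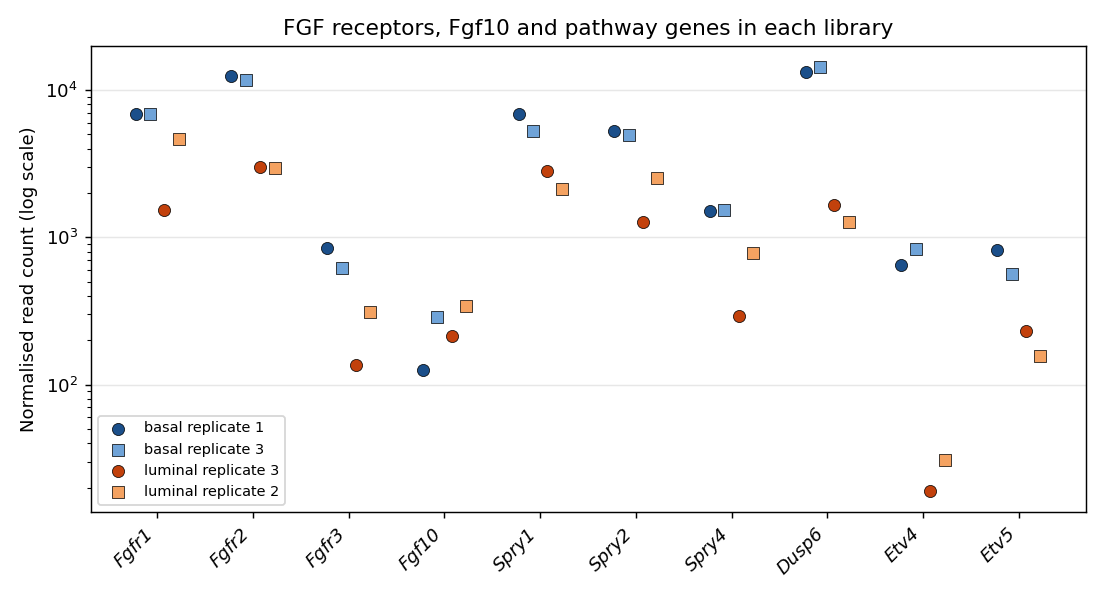
Normalized count of each of the 10 genes in each library on a log scale, with 1 point per library (blue, basal; orange, luminal). Luminal points lay below both basal points for every gene other than Fgf10, and the luminal Etv4 points, at 19 and 31, stand for 1 read each.

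Fgfr2, the receptor that FGF10 and FGF7 bind in epithelia, lies on chromosome 7 from 130162451 to 133123350 (GRCm38, ENSMUSG00000030849). It was at 12500 and 11627 normalized counts in basal replicates 1 and 3, and at 3021 and 2960 in luminal replicates 3 and 2. The luminal libraries differed from each other by less than counting error, with a ratio of 0.981 (95% exact interval 0.752 to 1.27). The basal average of 12064 ± 617 (SD, n = 2) was 4.03 times the luminal average of 2991 ± 43.1 (SD, n = 2). Fgfr2 was lower in luminal cells with a log2 fold change of -2.01 ± 0.20 (SE, limma adjusted p = 0.0409), with an edgeR adjusted p of 0.00191 and a DESeq2 adjusted p of 4.42e-05. The call held in 7 of 14 alternatives, over which the log2 fold change ran from -2.06 to -1.62. It was lost without the filter (limma adjusted p = 0.228), without the trended prior (0.110) and after rescaling to nuclear protein-coding genes (0.0527). It was also lost whenever 1 library was left out. Those fits have 1 residual degree of freedom and called almost only genes with equal values in the remaining pair, so they say little about the call. The table is per gene, so the epithelial and mesenchymal splice forms of the receptor were not separated, and 3.04% of the exon length is shared with Ctbp2.

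Fgfr1, which carries FGF signals in many mesenchymal cells and also in epithelia, lies on chromosome 8 from 25513654 to 25575718 (ENSMUSG00000031565). Basal libraries held 6914 and 6853 normalized counts of Fgfr1, luminal replicate 3 held 1530 and luminal replicate 2 held 4674. The basal pair was alike and the luminal pair was not. Luminal replicate 2 was 3.06 times luminal replicate 3 (95% exact interval 2.31 to 4.07). The log2 fold change was -1.36 ± 0.53 (SE) with a limma adjusted p of 0.260 and an edgeR adjusted p of 0.144. Both luminal values lay below both basal values and the basal average was 2.22 times the luminal, but neither test called the gene after adjustment over all genes. The log2 fold change was -0.56 without luminal replicate 3 and -2.17 without luminal replicate 2.

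Fgfr3, a receptor known for restraining bone growth and for activating mutations in bladder cancer, lies on chromosome 5 from 33721674 to 33737068 (ENSMUSG00000054252). It was at 845 and 617 normalized counts in basal cells and at 136 and 312 in luminal replicates 3 and 2, which were 7 and 10 reads. The groups did not overlap, and the log2 fold change of -1.80 ± 0.53 (SE) missed the limma threshold (adjusted p = 0.156) and that of edgeR (adjusted p = 0.0654). It was -1.21 without luminal replicate 3 and -2.40 without luminal replicate 2. Of its exon length 13.9% is shared with G630022F23Rik.

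Levels can be set side by side between receptors only per kilobase of exon. Summed normalized counts per kilobase of Fgfr1, Fgfr2, Fgfr3 and Fgfr4 came to 2029 and 1913 for the basal pair, to 472 for luminal replicate 3 and to 804 for luminal replicate 2. Fgfr2 made up 59.7% and 58.8% of this sum in basal cells, 62.0% in luminal replicate 3 and 35.7% in luminal replicate 2. Fgfr1 made up 34.5% and 36.3% in basal cells, 32.8% in luminal replicate 3 and 58.9% in luminal replicate 2. Fgfr2 was thus the most abundant receptor per kilobase in 3 libraries, and Fgfr1 in luminal replicate 2. The average share of Fgfr2 was 48.8% ± 18.6 (SD, n = 2) in luminal and 59.3% ± 0.583 (SD, n = 2) in basal cells. The exact permutation test of these shares cannot give a p under 0.333 with 2 against 2 libraries, so no call was made from it. Fgfr3 took 4.03% to 5.82% in all 4 libraries. Fgfr4 had no reads in basal replicate 1 and luminal replicate 2, 26 normalized counts in basal replicate 3 and 19 in luminal replicate 3, and did not pass the filter.

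**Figure D2:**
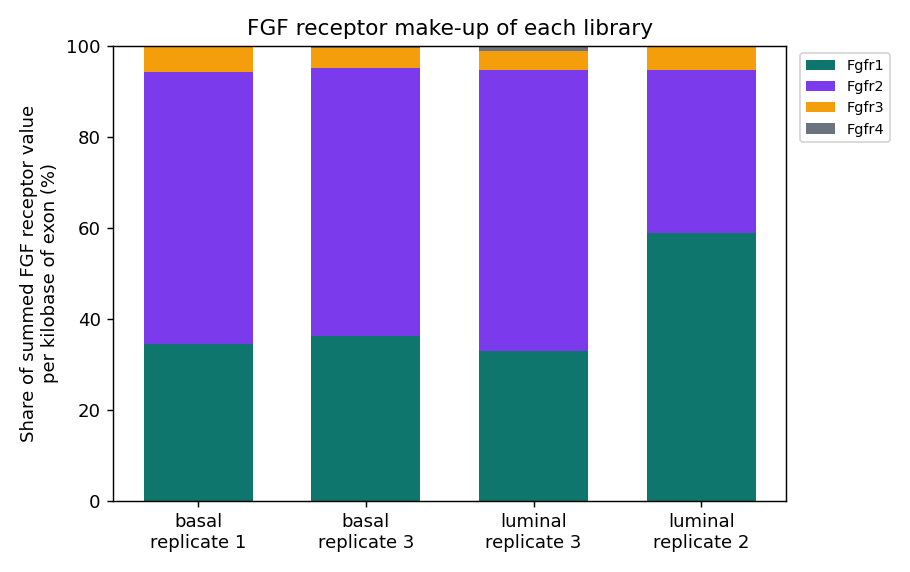
Share of each FGF receptor, in percent, in the summed normalized counts per kilobase of the 4 receptors, with 1 stacked bar per library starting at 0. Fgfr2 took 58.8% to 62.0% in 3 libraries and 35.7% in luminal replicate 2, where Fgfr1 took 58.9%.

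Fgf10, the mesenchymal ligand that drives prostate budding, lies on chromosome 13 from 118669791 to 118792115 (ENSMUSG00000021732). It was at 125 and 286 normalized counts in basal replicates 1 and 3, and at 213 and 343 in luminal replicates 3 and 2, from 11 to 44 reads a library. The groups overlapped, and the basal libraries alone differed 2.28-fold (95% exact interval 1.32 to 4.09). The log2 fold change of 0.51 ± 0.62 (SE) was within the spread between libraries (limma adjusted p = 0.676, edgeR adjusted p = 0.794) and was -0.081 without basal replicate 1. Basal replicate 3 was also the higher basal library in summed stromal markers, at 2.06 times basal replicate 1 over the 12 stromal genes whose values all lay on whole reads. The part of stromal RNA in the Fgf10 values was not tested.

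Dusp6, a cytoplasmic phosphatase that removes the activating phosphates from ERK, lies on chromosome 10 from 99263231 to 99267489 (ENSMUSG00000019960). It held 13308 and 14278 normalized counts in basal replicates 1 and 3, and 1665 and 1278 in luminal replicates 3 and 2. Both groups were tight and far apart, with the luminal ratio at 0.768 (95% exact interval 0.516 to 1.13). The basal average of 13793 ± 686 (SD, n = 2) was 9.37 times the luminal average of 1472 ± 274 (SD, n = 2). Dusp6 was lower in luminal cells too, with a log2 fold change of -3.24 ± 0.23 (SE, limma adjusted p = 0.0247), with an edgeR adjusted p of 0.000217 and a DESeq2 adjusted p of 1.62e-11. It ran from -3.43 to -2.91 over 14 alternatives, and the call held in 9 of them. It was lost without the filter (limma adjusted p = 0.228). It was also lost whenever 1 library was left out, in fits with 1 residual degree of freedom that say little about the call.

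Sprouty genes encode inhibitors that act between the receptor and ERK. Spry1 (chromosome 3, 37639947 to 37644598, ENSMUSG00000037211) was at 6883 and 5249 normalized counts in basal and at 2808 and 2119 in luminal replicates 3 and 2. Its log2 fold change of -1.30 ± 0.27 (SE) passed edgeR (adjusted p = 0.0355) and missed limma (adjusted p = 0.0705), and 24.4% of its exon length is shared with Gm42922. Spry2 (chromosome 14, 105891947 to 105896819, ENSMUSG00000022114) was at 5261 and 4917 in basal cells, 1278 in luminal replicate 3 and 2524 in luminal replicate 2. Its log2 fold change of -1.50 ± 0.36 (SE) also passed edgeR (adjusted p = 0.0304) and missed limma (adjusted p = 0.0968). Without luminal replicate 3 it was -1.01, and without luminal replicate 2 it was -1.99. Spry4 (chromosome 18, 38586247 to 38601415, ENSMUSG00000024427) was at 1509 and 1539 in basal cells, 290 in luminal replicate 3 and 779 in luminal replicate 2. It did not overlap between groups, and its log2 fold change of -1.68 ± 0.51 (SE) passed neither test (limma adjusted p = 0.165, edgeR adjusted p = 0.0613). It was -0.97 without luminal replicate 3 and -2.39 without luminal replicate 2.

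Etv4 and Etv5 encode ETS factors of the PEA3 group. Etv4 (chromosome 11, 101769742 to 101785371, ENSMUSG00000017724) was at 651 and 838 normalized counts in basal replicates 1 and 3, from 104 and 129 reads, and at 19 and 31 in the luminal libraries, which was 1 read each. Basal exceeded luminal libraries 31.2-fold in reads scaled by depth, with a 95% exact interval from 8.54 to 259 that covers counting error only. The limma log2 fold change of -4.87 ± 0.64 (SE) had the largest size among the 10 genes and missed the threshold (adjusted p = 0.0567), whereas edgeR called it (adjusted p = 0.00162). Etv5 (chromosome 16, 22381309 to 22439719, ENSMUSG00000013089) was at 814 and 565 in basal and at 232 and 156 in luminal replicates 3 and 2, with 12 and 5 luminal reads. Its groups were apart as well, with a log2 fold change of -1.83 ± 0.44 (SE, limma adjusted p = 0.0941, edgeR adjusted p = 0.0604).

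**Figure D3:**
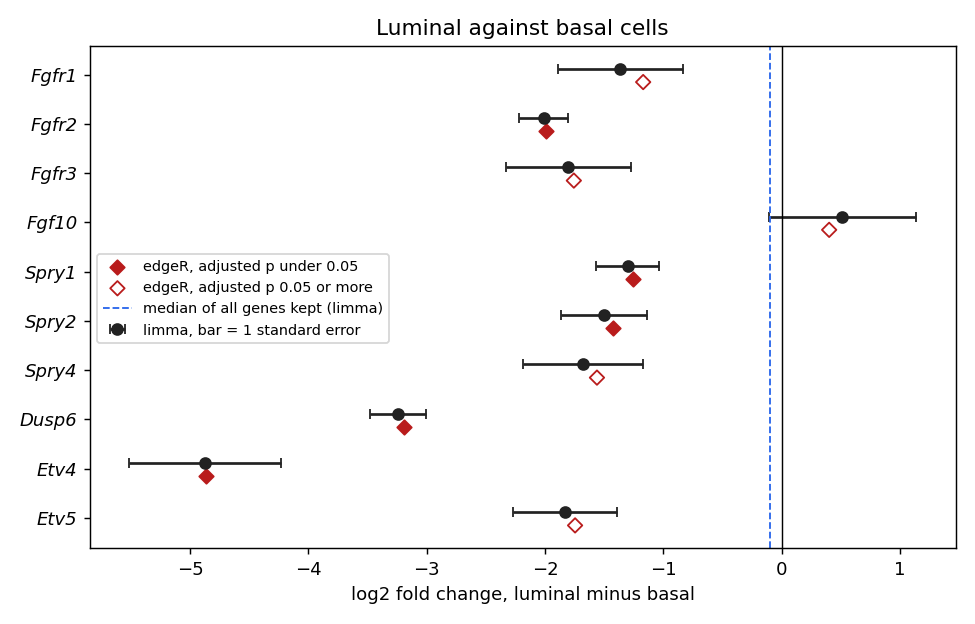
Log2 fold change, luminal minus basal, of each of the 10 genes from limma on log2(value + 1) (black, with bars of 1 SE) and from the edgeR count model on recovered reads (diamonds, filled where the adjusted p is under 0.05), with a dashed line at the median of all genes. In limma Dusp6 at -3.24 and Fgfr2 at -2.01 passed the adjusted threshold, Etv4 at -4.87 did not, and Fgf10 at 0.51 alone was above 0.

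Per kilobase of exon, Dusp6 was the most abundant of the 10 in basal cells, at 4249 and 4559 normalized counts. Spry2 followed at 2521 and 2356 and Spry1 at 2369 and 1806, and these neighbours overlapped. Fgfr2 came next at 1210 and 1126, ahead of Fgfr1 at 700 and 694 and Spry4 at 317 and 324. Etv4, Etv5, Fgfr3 and Fgf10 lay between 27.2 and 270 per kilobase. In luminal replicate 3 the order began with Spry1 at 966, Spry2 at 612 and Dusp6 at 532, and in luminal replicate 2 with Spry2 at 1209, Spry1 at 729 and Fgfr1 at 473. Dusp6 was thus first in both basal libraries and first in neither luminal library, and Etv4 was the lowest of the 10 in both luminal libraries, at 6.12 and 9.99 per kilobase. The lengths merge all annotated exons of a gene, which sets the scale of these levels.

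The luminal libraries differed from each other for some of the genes beyond counting error and not for others. Luminal replicate 2 exceeded luminal replicate 3 by 3.06-fold for Fgfr1, 2.69-fold for Spry4 (95% exact interval 1.36 to 5.48) and 1.98-fold for Spry2 (1.41 to 2.78). The intervals of the other 7 genes held a ratio of 1. Summed stromal markers were 2.82 times as high in luminal replicate 2 as in replicate 3 over the 12 genes on whole reads. Smooth muscle markers were 6.11 times as high over all 6 genes, 5 of them higher in luminal replicate 2. The other, Des, was at 3207 in luminal replicate 3 and 2834 in replicate 2, and its luminal values were not whole reads. Dissociation stress genes were 1.44 times as high, and luminal markers 0.612 times. The part of these in the Fgfr1, Spry4 and Spry2 values was not tested. These differences are not between study groups, and the 3 genes were singled out after their values were seen.

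**Figure D4:**
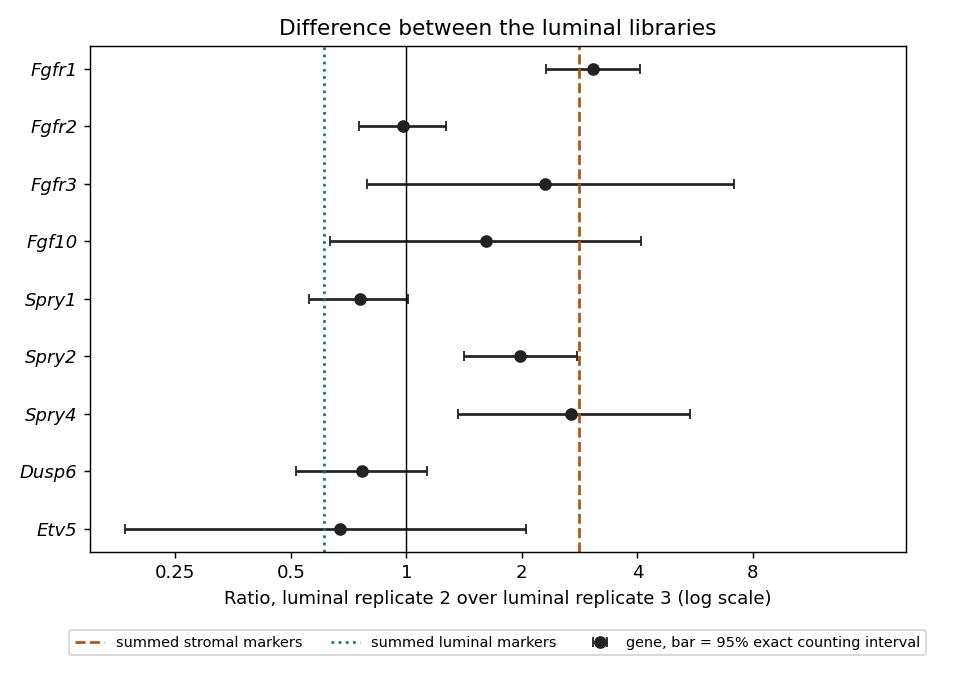
Ratio of luminal replicate 2 over luminal replicate 3 on a log axis for 9 of the 10 genes, with 95% exact counting intervals, and lines at the ratio of summed stromal markers (2.82) and summed luminal markers (0.612). Fgfr1, Spry2 and Spry4 lie above 1 with their intervals, and Etv4, with 1 read in each library, is left out.

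The wider pathway was read from a list of 96 genes that includes the 10, of which 95 had a row and 79 passed the filter. By the fold rule 30 of the 79 were lower in luminal cells, against 16.3% of all genes, and 4 were higher, against 18.3%. Of the 79, 7 passed the filter through basal cells alone and 2 through luminal cells alone, and such genes are low in the other group by the way they were kept. Among the 70 that met it in both groups, 27 were lower, against 12% of all genes so filtered, and 3 were higher, against 12.4%. With libraries rescaled to their nuclear protein-coding total, 19 were lower, against 11.5% of all genes, and 8 were higher, against 24.3%, and the all-gene median log2 fold change shifted to 0.21. The limma test called Dusp6 and Fgfr2 alone. Of the 69 genes that are not among the 10, edgeR called 7 lower, against 2.72% of all genes, and 1 higher, against 2.36%. DESeq2 called 6 lower, against 2.22% of all genes, and 1 higher, against 2.15%. Their median log2 fold change was -0.74.

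Other receptors and ligands were few. Fgfrl1, a receptor without a kinase domain, was at 251 and 169 normalized counts in basal and at 58 and 343 in luminal replicates 3 and 2, and the groups overlapped. Only 5 of 17 other ligand genes passed the filter. By the fold rule 1 of the 5 was lower, against 16.3% of all genes, and 2 were higher, against 18.3%, with a median log2 fold change of 0.61. The higher genes were Fgf2 and Fgf18. Fgf18 had 1 or 2 reads in each library and met the filter in luminal cells alone. Fgf1 was at 2286 and 1202 in basal and at 794 and 873 in luminal cells (limma adjusted p = 0.247). Fgf7, a mesenchymal ligand of FGFR2, was at 56 and 136 in basal cells, at 0 in luminal replicate 3 and at 125 in luminal replicate 2. Fgf2 ran the other way, at 407 and 792 in basal and 1622 and 1993 in luminal cells, and was called higher by edgeR (adjusted p = 0.0404) and not by limma (adjusted p = 0.0926). The luminal values of Fgf2 were not whole reads, unlike those of the 10 genes, so its read-based test is uncertain.

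Among cofactors that hold or present FGFs, 6 of 18 genes were lower by the fold rule, against 16.3% of all genes, and 1 was higher, against 18.3%. Of the 15 cofactor genes that met the filter in both groups, 5 were lower and 1 was higher, against 12% and 12.4% of all genes so filtered. The edgeR test called 2 of the 18 lower, against 2.72% of all genes. These were the heparan sulphate proteoglycan genes Sdc4, at 4002 and 5443 normalized counts in basal and 1336 and 1745 in luminal cells (edgeR adjusted p = 0.0124), and Sdc1, at 3996 and 3157 in basal and 1394 and 1247 in luminal cells (edgeR adjusted p = 0.0202). Fgfbp1, which encodes a carrier that releases FGFs from the matrix, had 97 basal and 3 luminal reads, a ratio of 8.66 after scaling by depth (95% exact interval 2.88 to 42.7, counting error only). Luminal replicate 2 had no read of it, it passed the filter through the basal libraries alone, and no test called it (limma adjusted p = 0.246, edgeR adjusted p = 0.0797, DESeq2 adjusted p = 0.124). Of 19 transducer genes, 2 were lower by the fold rule, against 16.3% of all genes, and none was higher, against 18.3%. Both luminal values lay below both basal values for 11 of the 19, against 27.3% of all genes, and above them for 3, against 23.6%. Nras was at 3269 and 3923 in basal and 1588 and 1558 in luminal cells. It was called by edgeR (adjusted p = 0.0475) and not by limma (adjusted p = 0.0705) or DESeq2 (adjusted p = 0.112). Hras had a log2 fold change of -1.41 ± 0.47 (SE, limma adjusted p = 0.206, edgeR adjusted p = 0.154). Map2k1, which encodes the kinase MEK1, was at 470 and 195 in basal and 562 and 592 in luminal cells (limma adjusted p = 0.399).

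Other feedback inhibitors and nuclear targets held 4 of the 7 lower edgeR calls outside the 10 genes. Of 8 other feedback inhibitors, 4 were lower by the fold rule, against 16.3% of all genes, and none was higher, against 18.3%, with a median log2 fold change of -1.40. Spred2, a Sprouty-related inhibitor of RAF activation, was at 4421 and 2592 in basal and 600 and 530 in luminal cells (edgeR adjusted p = 0.00153). Dusp7, a phosphatase of the DUSP6 group, was at 1127 and 1410 in basal and 174 and 374 in luminal cells (edgeR adjusted p = 0.0118). Dusp4, a nuclear ERK phosphatase, was at 582 and 455 in basal and 368 and 93 in luminal cells (edgeR adjusted p = 0.354).

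Of 10 other nuclear targets, 6 were lower by the fold rule, against 16.3% of all genes, and none was higher, against 18.3%. Their median log2 fold change was -0.98. Of the 6, Fos and Etv1 overlapped between groups. Fos, at 63948 and 22988 in basal and 14212 and 28046 in luminal cells, and Egr1 are also among the 12 dissociation stress genes. Ets1, an ETS factor that ERK phosphorylates, was at 2743 and 5145 in basal and 407 and 841 in luminal cells (edgeR adjusted p = 0.00362, limma adjusted p = 0.0688). Ier3, an early response gene named here after its values were seen, was at 5148 and 6242 in basal and 1859 and 2555 in luminal cells (edgeR adjusted p = 0.0235). Ccnd1, which encodes cyclin D, had a log2 fold change of -1.74 ± 0.60 (SE, edgeR adjusted p = 0.0762) and Fosl1, an AP-1 subunit gene, one of -1.54 ± 0.45 (SE, edgeR adjusted p = 0.0537). Genes for regulators of FGFR splicing did not move one way. Esrp2, an epithelial splicing factor that favours the epithelial FGFR2 form, was at 395 and 214 in basal and 871 and 873 in luminal cells (limma adjusted p = 0.119, edgeR adjusted p = 0.0593). Rbfox2 and Ptbp1 had log2 fold changes of -1.03 ± 0.35 (SE, limma adjusted p = 0.209) and -0.95 ± 0.20 (SE, limma adjusted p = 0.0743).

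**Figure D5:**
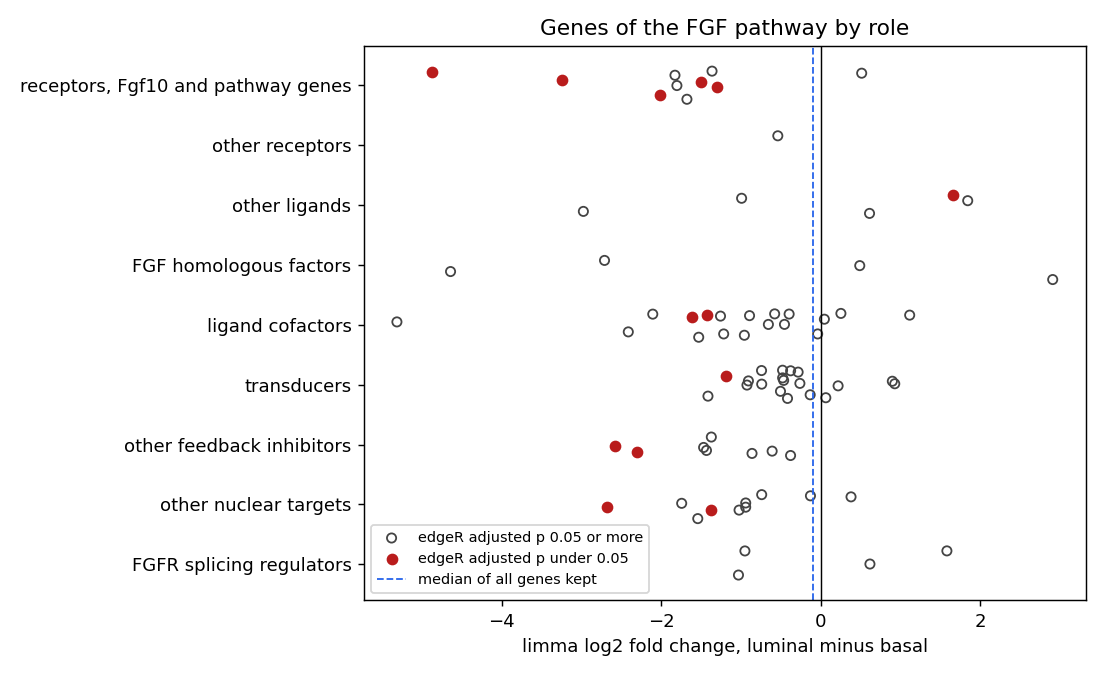
Limma log2 fold change, luminal minus basal, of the genes of the FGF pathway list that passed the filter, 1 point per gene, grouped by role and filled where edgeR called the gene, with a dashed line at the median of all genes. Other feedback inhibitors and other nuclear targets have medians of -1.40 and -0.98, and points far below 0 include genes with few or no luminal reads, such as Fgfbp1.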

How the data were processed

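RNA-seq libraries of sorted basal and luminal cells from prostate tips, 2 per group, were analysed. The authors mapped reads to GRCm38 with STAR, counted them per gene with HTSeq and scaled the counts to a common total, and the deposited signal per gene is this normalized count rounded to a whole number. Picard is also named in the submitters' processing notes, and strand use and duplicate removal are not given in the sources used here.

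The 10 genes, the pathway list and the markers were chosen with earlier results of these data known. The filter asked that 1 group or both have a mean of 20 or more with no library under 10. limma 3.58.1 (R 4.3.3) was fitted with a trended prior to log2 of the value plus 1, luminal minus basal, with Benjamini-Hochberg adjustment over 18737 genes and a threshold of 0.05.

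Steps between low values (up to 60 reads) gave what 1 read is worth in each library. Between 97.9% and 99.0% of these lay within 0.55 normalized counts of a whole read. On the recovered reads edgeR 4.0.16 called 509 genes lower and 442 higher, and DESeq2 1.42.0 416 and 403. limma called 82 and 48. In 562 genes, none of the 10, a value lay off the spacing. Exact intervals cover counting error only. All columns were mapped, leaving 0 unmapped. Exon lengths and coordinates came from GENCODE M21, which held 49326 of the gene identifiers, and promoters from RefSeq.

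Named beside the 10 were, in each role of the pathway list, the 3 genes of largest log2 fold change averaging 100 or more over 4 libraries, plus Fgfr4, Fgfrl1, Fgf1, Fgf2 and Fgf7. Ier3, Jund, Fos, Egr1, Etv1, Fgf18, Dcn and Des were added after their values were seen. Alternatives were another pseudocount, filter, scaling, prior, test or fold threshold, each library left out in turn, receptor shares without length and, added after seeing the data, leaving out genes off the spacing.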

Additional observations from a re-analysis of the deposited data

How the results depend on the processing

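The number of the 10 genes that limma called lower, 2 in the fit reported, was 0 without the filter, 5 with a filter that both groups had to meet, 1 after rescaling to nuclear protein-coding genes, 5 with edgeR and 4 with DESeq2, and 0 to 0 when 1 library was left out. Over all genes, limma then called 445 lower and 6 higher without a basal library, and 7 or 11 lower and 220 higher without a luminal library, and without the filter it called 0 lower and 0 higher, with 4455 at an unadjusted p under 0.05. Fits with 1 library left out have 1 residual degree of freedom, and 442 of the 451 genes called without a basal library and 220 of the 227 or 231 called without a luminal library had equal values in the remaining pair. With the filter that both groups had to meet, limma called 409 of 14953 genes lower, against 82 of 18737 in the fit reported. After rescaling to nuclear protein-coding genes it called 62 of 18737 lower. The cause of the other changes was not tested. Without the trended prior, limma called Dusp6 and Etv4 in place of Dusp6 and Fgfr2, while its calls over all genes went from 82 to 321 lower and from 48 to 223 higher. At a fold threshold of 4, 3 of the 10 were lower, against 6.05% of all genes. With 1 library left out, 0 to 1 was higher by the fold rule (Fgf10, without basal replicate 3, against 20.3% of all genes). Fgf10 alone reversed, and its log2 fold change ran from -0.081 without basal replicate 1 to 1.11 without basal replicate 3.

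For the pathway list, limma called 2 lower in the fit reported, 9 with a pseudocount of 10, 0 without the filter, 12 with the stricter filter, 4 after quantile normalization, 1 after nuclear protein-coding rescaling, 12 with edgeR, 10 with DESeq2 and 0 to 0 with 1 library left out. Over all genes the limma calls of lower genes moved too, from 82 to 319 with the larger pseudocount, 409 with the stricter filter, 114 after quantile normalization and 62 after nuclear protein-coding rescaling. It called 0 higher, and the stricter filter, edgeR and DESeq2 each called 1. By the fold rule 30 were lower and 4 higher, which became 8 and 1 at a threshold of 4 (6.05% and 7.77% of all genes) and 19 and 8 after nuclear protein-coding rescaling (11.5% and 24.3%). The higher count was 7 without the filter (23.4% of all genes) and 4 to 9 with 1 library left out (18.9% to 21.4%), 7 without basal replicate 1 and 9 without basal replicate 3. Without division by length, Fgfr2 took 61.3% of receptor signal in basal cells, and Fgfr3 took 3.70% in basal and 3.41% in luminal cells. No paired analysis was possible because the groups share only replicate number 3. The 1 luminal read of Etv4 per library and the 5 to 12 luminal reads of Fgfr3 and Etv5 limit their ratios, since a step of 1 read there is a large part of the value.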
